A study of Mus musculus with 12 samples.

Results

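The 10 genes described here are the CDK inhibitors *Cdkn1a*, *Cdkn1b*, *Cdkn1c*, *Cdkn2a*, *Cdkn2c* and *Cdkn2d*, the stress-response gene *Gadd45a*, the tumor suppressor *Trp53* and its negative regulators *Mdm2* and *Mdm4*. They were chosen by gene name from a table of RNA-Seq counts over 41128 genes, in which each of the 10 had 1 entry. The libraries came from PreMegEs, the bone marrow progenitors that give rise to megakaryocytes (Mk) and erythroid (Ery) cells, and the study asked how the expression of *Runx1* from its distal promoter P1 and its proximal promoter P2 relates to that bifurcation. Cells were sorted from the bone marrow of C57BL/6 mice aged 12 to 16 weeks. WT PreMegEs came from wild type mice. P2- and P2+ PreMegEs came from Runx1 P1-GFP::P2-hCD4/+ mice, which carry 1 reporter allele beside 1 unmodified allele. They were divided by the hCD4 reporter of the P2 promoter among cells with an active P1 promoter. KO PreMegEs came from RUNX1C knockout mice, which lack the P1 isoform in all cells and keep the P2 promoter. Each group had 3 libraries, each of them made from cells pooled from 3 mice, so that p-values measure the spread between pools. Because the reporter allele was present in P2- and P2+ but not in WT mice, the reporter allele and the sorted fraction cannot be told apart in comparisons with WT PreMegEs. Whether KO and WT libraries were prepared together was not given in the sources used here.

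Progress through the cell cycle is driven by complexes of cyclins and cyclin-dependent kinases (CDKs). The CIP/KIP inhibitors encoded by *Cdkn1a* (p21), *Cdkn1b* (p27) and *Cdkn1c* (p57) bind whole cyclin-CDK complexes, whereas the INK4 inhibitors encoded by *Cdkn2a*, *Cdkn2c* and *Cdkn2d* bind the D-type cyclin-dependent kinases. The transcription factor p53, encoded by *Trp53*, induces *Cdkn1a*, *Gadd45a* and *Mdm2* after DNA damage. MDM2 is the ubiquitin ligase that marks p53 for degradation and MDM4 is its partner, which also masks the activation domain of p53. Cell cycle exit accompanies terminal erythroid maturation, and megakaryocytes become polyploid by cycles without division. Much of the control of p27 and p53 acts on the proteins, which RNA counts do not measure.

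Library totals ran from 10726098 to 14445026 counts. Levels are given as CPM, the count of a gene relative to the scaled total of its library. The sorting markers *Kit* (732 to 1156 CPM) and *Slamf1* (34.1 to 65.5 CPM) were detected in all libraries. Of the markers that the gate selects against by surface protein, *Ly6a* and *Fcgr3* stayed at or under 3.97 CPM, whereas transcripts of *Fcgr2b* (up to 17.1 CPM), *Eng* (93.9 to 153 CPM) and *Itga2b* (38.7 to 320.4 CPM) were present. *Itga2b* was at 38.7 to 61.5 CPM in P2- and at 253 to 320.4 CPM in P2+ libraries. The gene count of *Runx1*, which sums both promoters and so checks neither isoform, was 357 to 387 CPM in WT, 202 to 217 CPM in P2-, 613 to 659 CPM in P2+ and 341 to 381 CPM in KO libraries. Replicate 2 of P2- and replicate 2 of P2+ stood apart from the other 10 libraries by their counts on immediate early genes, the transcripts that cells induce within minutes of stress or stimulation. The 20 genes of that list summed to 14881 CPM in P2- replicate 2 and 10393 CPM in P2+ replicate 2, against 291 to 1519 CPM elsewhere. Results are therefore also given without these libraries where that changed them.

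The 10 genes lie on 8 chromosomes and are annotated as protein coding. The p53 axis is shown first by sequence, because *Cdkn1a*, *Gadd45a* and *Mdm2* are classical p53 target genes and *Trp53* was among the genes that differed between the sorted fractions. RefSeq promoter windows (GRCm38.p6) were at hand for 9 of the 10 genes, *Cdkn1c* excepted, 13 windows in all. On either strand, the p53 half-site motif matched within the 250 bases before the start in 5 of these 13 windows, 1 each of *Cdkn1a*, *Cdkn2d*, *Gadd45a*, *Trp53* and *Mdm2*, and in 7.13% of all 32851 promoter windows. The 3 sequences below lie before both the RefSeq and the GENCODE start of the gene, read 5′ to 3′ on the strand of the gene, with matches to the half-site in capitals. They span chr17:29090729-29090975 on the plus strand for *Cdkn1a*, chr11:69580109-69580358 on the plus strand for *Trp53* and chr10:117710759-117711008 on the minus strand for *Mdm2*.
Cdkn1a: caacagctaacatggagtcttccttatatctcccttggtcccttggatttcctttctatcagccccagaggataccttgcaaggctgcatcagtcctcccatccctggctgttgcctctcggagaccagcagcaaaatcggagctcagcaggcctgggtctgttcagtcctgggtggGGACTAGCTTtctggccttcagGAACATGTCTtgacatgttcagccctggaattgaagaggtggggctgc
Trp53: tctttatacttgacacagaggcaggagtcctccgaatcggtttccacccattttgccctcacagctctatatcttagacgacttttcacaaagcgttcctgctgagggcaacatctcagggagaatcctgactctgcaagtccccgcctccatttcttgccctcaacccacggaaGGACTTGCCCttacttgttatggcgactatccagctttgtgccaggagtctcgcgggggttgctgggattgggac
Mdm2: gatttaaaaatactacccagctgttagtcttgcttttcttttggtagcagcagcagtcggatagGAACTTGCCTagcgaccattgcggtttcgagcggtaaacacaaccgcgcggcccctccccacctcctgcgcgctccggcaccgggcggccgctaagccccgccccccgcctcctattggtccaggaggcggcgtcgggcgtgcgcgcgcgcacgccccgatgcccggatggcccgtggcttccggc
The *Cdkn1a* window, at the upstream one of its 2 RefSeq starts, held 2 matches, beginning 73 and 51 bases before that start. The matches in *Trp53* and *Mdm2* began 75 and 186 bases before the start. The matches of *Cdkn2d* and *Gadd45a* lie inside the annotated gene and are not printed. No window of the 9 genes held TGTGGT, a core motif of RUNX proteins that 14.0% of all windows hold on either strand. A match or its absence describes these letters in these windows only.

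Between P2+ and P2- PreMegEs, which differ in the activity of the P2 promoter, the genes moved in both directions. *Cdkn1c*, *Cdkn2c* and *Cdkn2d* were higher in P2+ cells, *Gadd45a*, *Trp53* and *Mdm4* were lower, and *Cdkn1a*, *Cdkn1b* and *Mdm2* did not pass the test (edgeR quasi-likelihood test, Benjamini-Hochberg adjusted over 12836 genes, n = 3 per group). Thus 6 of the 9 testable genes were called at an adjusted p under 0.05, where 37.1% of all genes tested were called. Of all genes tested, 20.1% were higher and 17.0% were lower in P2+ cells. Groups whose libraries did not overlap were common. Among all genes tested, this held for 49.9% in P2+ and P2-, 35.5% in P2+ and WT and 35.1% in P2- and WT. It held for 31.8% in KO and WT, 21.5% in KO and P2- and 50.5% in KO and P2+. Ranges said below not to overlap are to be read against these shares. The same 6 genes, in the same directions, were called in P2+ against WT cells, where 16.5% of genes were called, and both of these comparisons use the same P2+ libraries. *Cdkn2a* was not tested, since it had between 0 and 2 counts in each of the 12 libraries. That lies under the limit of 3 counts, or 0.208 to 0.280 CPM, that a count of 0 allows, and covers counting error only.

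**Figure D1:**
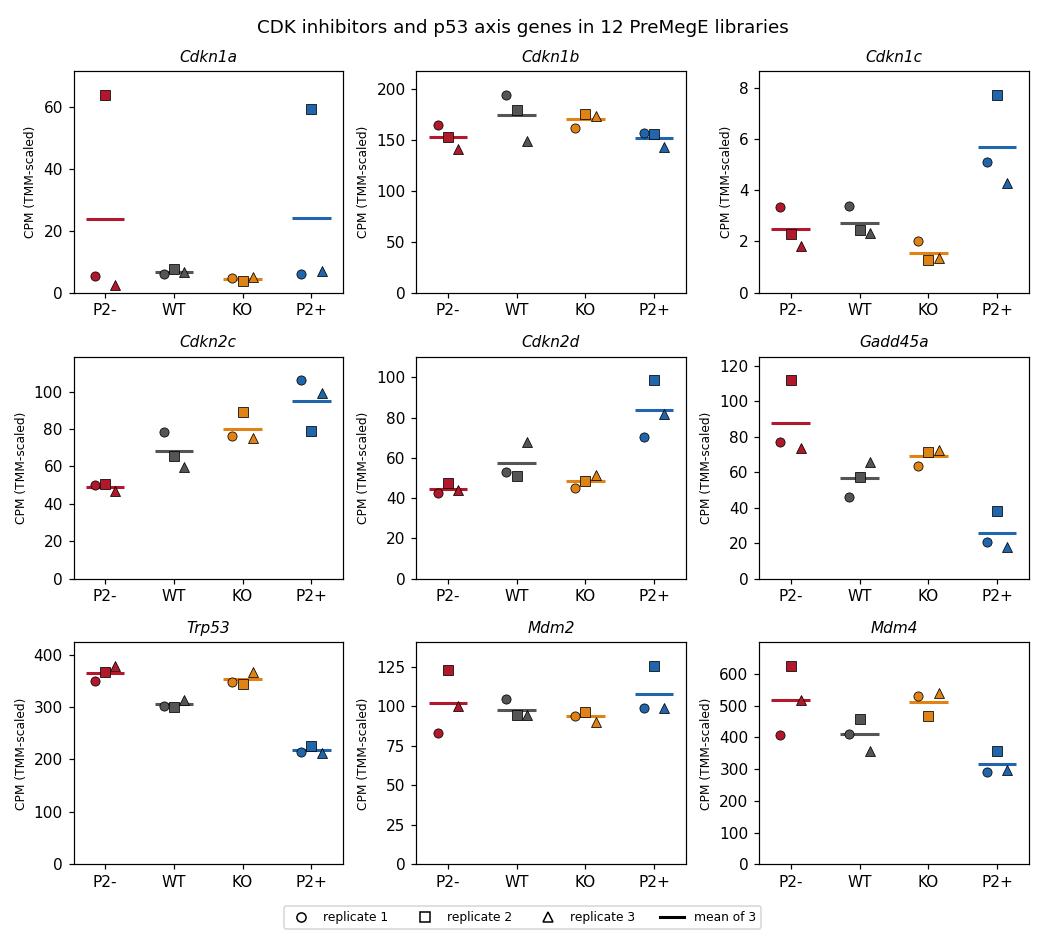
CPM (linear axis from 0, scaled by library size) of the 9 genes with counts above the limit in each of the 12 libraries, with P2-, WT, KO and P2+ PreMegEs from left to right, symbols for the replicate number and bars at the mean of 3. *Trp53* shows P2+ libraries (213 to 226 CPM) below and P2- libraries (350 to 378 CPM) above the WT libraries, and *Cdkn1a* shows 1 high library each in P2- (63.9 CPM) and P2+ (59.1 CPM).

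Levels per length of exon in WT PreMegEs were taken as RPKM from the scaled counts and the annotated exonic length. That length counts the exons of all annotated transcripts, so the order of the genes depends on it. *Mdm4* had the highest mean of these genes in CPM (409) but the longest exons (14798 bases). The values of *Cdkn1b*, *Cdkn2d* and *Gadd45a* overlapped within their SDs. *Trp53* stood at 75.5 ± 1.67 RPKM (SD, n = 3), *Cdkn1b* at 38.2 ± 5.11, *Cdkn2d* at 36.4 ± 5.79, *Gadd45a* at 32.1 ± 5.65, *Mdm4* at 27.6 ± 3.41, *Cdkn2c* at 25.3 ± 3.55 and *Mdm2* at 19.3 ± 1.16 RPKM. *Cdkn1a* (1.90 ± 0.21 RPKM) and *Cdkn1c* (1.34 ± 0.29 RPKM) were far lower. The p27 transcript was thus the most abundant of the 3 CIP/KIP transcripts in WT cells, and p19 (*Cdkn2d*) and p18 (*Cdkn2c*) made up the INK4 transcripts.

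Among the CIP/KIP genes, *Cdkn1b*, whose product holds progenitor cells in quiescence, was not called in any comparison. It was at 165, 153 and 141 CPM in P2-, 157, 155 and 143 CPM in P2+, 194, 179 and 149 CPM in WT and 162, 175 and 174 CPM in KO PreMegEs. The P2- and P2+ libraries overlapped throughout. The log2 difference of P2+ over P2- was -0.00 (SE 0.08, 95% confidence interval -0.18 to 0.18, adjusted p = 0.993), which bounds any difference at that interval. Over the 6 pairs of groups its adjusted p was between 0.120 for KO against P2+ and 0.993.

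*Cdkn1c*, whose product p57 is best known for the quiescence of stem cells, was scarce but higher in P2+ PreMegEs. It was at 3.34, 2.30 and 1.83 CPM in P2-, 5.11, 7.73 and 4.27 CPM in P2+, 3.40, 2.45 and 2.33 CPM in WT and 2.01, 1.28 and 1.37 CPM in KO libraries, which came to between 15 and 112 counts. Of its 2039 exonic bases, 625 overlap the antisense gene *Gm44732*, whose reads may not be told apart from its own. All 3 P2+ libraries lay above the other 9. It was 2.31-fold higher in P2+ than in P2- (log2 1.21, SE 0.34, adjusted p = 0.0219) and 2.10-fold higher than in WT cells (log2 1.07, SE 0.32, adjusted p = 0.0461). The call against P2- did not hold without P2- replicate 3 (adjusted p = 0.0787), without P2+ replicate 2 (0.0759), or without replicate 2 of both (0.102). Against WT it was lost on leaving out any library other than P2+ replicate 3, with adjusted p up to 0.143. The fold of 3.70 between P2+ and KO cells (log2 of KO over P2+ -1.89, SE 0.35, adjusted p = 0.00163) was called whichever library was left out.

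*Cdkn1a*, the p53 target that encodes p21, was decided by single libraries. The antisense gene *AC167363.2* overlaps 273 of its 3553 exonic bases. It was at 5.41, 63.9 and 2.40 CPM in P2-, 6.11, 59.1 and 6.94 CPM in P2+, 6.03, 7.52 and 6.77 CPM in WT and 4.89, 3.76 and 5.01 CPM in KO PreMegEs. Replicate 2 was 16.3-fold above the mean of the other 2 P2- libraries and 9.05-fold above that of the other P2+ libraries. With all libraries the log2 difference of P2+ over P2- was 0.05 (SE 1.16, 95% confidence interval -2.59 to 2.68, adjusted p = 0.978). Without replicate 2 of both groups it was 0.78 (adjusted p = 0.132). The test did not use the shared replicate numbers, so the interval takes in the height of replicate 2 that both groups had in common. KO cells were called lower than P2+ cells (log2 -2.43, SE 0.76, adjusted p = 0.0274), but without P2+ replicate 2 the difference was -0.54 (adjusted p = 0.129), and the call was also lost on leaving out any 1 KO library.

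The INK4 genes that were detected both rose with P2 activity. *Cdkn2c*, which encodes p18, a brake on progenitor self-renewal, was at 50.3, 50.4 and 46.8 CPM in P2- and at 106, 79.2 and 99.3 CPM in P2+ PreMegEs. WT libraries stood between them at 78.5, 65.7 and 59.9 CPM, and KO libraries at 76.3, 89.4 and 75.2 CPM. P2- libraries were thus below all others, whereas P2+ overlapped with KO. The transcript was 1.95-fold higher in P2+ than in P2- cells (log2 0.96, SE 0.12, adjusted p = 0.000283) and 1.40-fold higher than in WT (log2 0.48, SE 0.12, adjusted p = 0.0240). It was 1.38-fold lower in P2- than in WT cells (log2 -0.47, SE 0.11, adjusted p = 0.0141) and 1.63-fold higher in KO than in P2- cells (log2 0.70, SE 0.09, adjusted p = 0.00479). In the order P2-, WT, KO, P2+, the neighbours WT and KO (adjusted p = 0.139) and KO and P2+ (adjusted p = 0.102) did not pass the test.

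*Cdkn2d*, which encodes the INK4 protein p19, was at 42.3, 47.4 and 43.8 CPM in P2-, 70.4, 98.5 and 81.8 CPM in P2+, 53.2, 51.1 and 67.8 CPM in WT and 45.2, 48.6 and 51.4 CPM in KO PreMegEs. The P2+ libraries lay above all others. They were 1.90-fold above P2- (log2 0.92, SE 0.13, adjusted p = 0.000615), 1.46-fold above WT (log2 0.55, SE 0.14, adjusted p = 0.0231) and 1.74-fold above KO cells (log2 of KO over P2+ -0.80, SE 0.12, adjusted p = 0.000386). P2- libraries did not overlap with WT, as in 35.1% of all genes tested, but the difference missed the threshold (log2 -0.37, SE 0.12, adjusted p = 0.0589). Unlike *Cdkn2c*, *Cdkn2d* was not called in KO against P2- cells (log2 0.12, SE 0.09, adjusted p = 0.575).

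*Gadd45a*, a sensor of stress that inhibits the mitotic CDK1 kinase and activates stress kinases, showed the largest of the 6 called changes. It was at 76.8, 112 and 73.9 CPM in P2-, 20.4, 38.4 and 17.8 CPM in P2+, 46.2, 57.5 and 66.0 CPM in WT and 63.7, 71.2 and 72.5 CPM in KO PreMegEs. The 3 P2+ libraries lay below all others, and the 3 P2- libraries lay above all others. It was 3.39-fold lower in P2+ than in P2- cells (log2 -1.76, SE 0.29, adjusted p = 0.00151), lower than in WT (log2 -1.14, SE 0.25, adjusted p = 0.0127) and 2.67-fold higher in KO than in P2+ cells (log2 1.42, SE 0.23, adjusted p = 0.000753). P2- exceeded WT cells 1.55-fold (log2 0.63, SE 0.17, adjusted p = 0.0311), and KO cells, in between, passed the test against neither WT (adjusted p = 0.0994) nor P2- cells (adjusted p = 0.294). The highest library of P2- and of P2+ was replicate 2 in each case, 1.48-fold and 2.01-fold above the mean of the other 2, and without both the log2 difference of P2+ over P2- was -1.96 (adjusted p = 1.14e-07). An antisense gene, *E230016M11Rik*, overlaps its exons over 337 bases and had 11 to 51 counts per library.

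*Trp53*, whose product governs the response to DNA damage, varied little between replicates. It was at 350, 368 and 378 CPM in P2-, 215, 226 and 213 CPM in P2+, 302, 301 and 313 CPM in WT and 348, 344 and 367 CPM in KO PreMegEs. P2+, WT and P2- libraries formed 3 ranges without overlap, and KO libraries fell within or just below the P2- range. The transcript was 1.66-fold lower in P2+ than in P2- (log2 -0.73, SE 0.07, adjusted p = 8.51e-05) and 1.40-fold lower than in WT cells (log2 -0.48, SE 0.07, adjusted p = 0.00146), and both calls held whichever library was left out. It was 1.20-fold higher in P2- than in WT (log2 0.26, SE 0.07, adjusted p = 0.0343) and 1.15-fold higher in KO than in WT cells (log2 0.20, SE 0.06, adjusted p = 0.0262). The call of P2- against WT held in only 2 of the 6 fits that left out 1 library. KO and P2- cells did not differ beyond the spread (log2 -0.05, 95% confidence interval -0.20 to 0.09, adjusted p = 0.732). The pseudogene *Trp53-ps* held 11.4% to 14.3% of the counts assigned to either copy, so that part of the reads could have been split between them.

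*Mdm4* and *Mdm2* encode the regulators that bind p53. *Mdm4* was at 406, 624 and 519 CPM in P2-, 292, 357 and 296 CPM in P2+, 412, 458 and 357 CPM in WT and 529, 467 and 540 CPM in KO PreMegEs. P2- and WT libraries overlapped, whereas the P2+ libraries lay just below the WT libraries and the KO libraries just above them. It was 1.62-fold lower in P2+ than in P2- (log2 -0.70, SE 0.15, adjusted p = 0.00684), 1.29-fold lower than in WT (log2 -0.37, SE 0.11, adjusted p = 0.0442) and 1.24-fold higher in KO than in WT cells (log2 0.32, SE 0.08, adjusted p = 0.0120). The call of *Mdm4* in P2+ against WT was lost in 7 of 14 alternatives of processing or left-out libraries. Its pseudogene *Mdm4-ps* held 2.38% to 3.95% of the counts of the pair. *Mdm2*, which p53 itself induces, was at 83.0, 123 and 100.1 CPM in P2-, 99.0, 125 and 98.8 CPM in P2+, 105, 94.7 and 94.3 CPM in WT and 93.8, 96.6 and 90.4 CPM in KO libraries. The groups overlapped, apart from the KO libraries, which all lay below the P2+ libraries (adjusted p = 0.107). The log2 difference of P2+ over P2- was 0.09 (SE 0.15, 95% confidence interval -0.25 to 0.43, adjusted p = 0.677). *Mdm2* was called in none of the 6 comparisons.

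**Figure D2:**
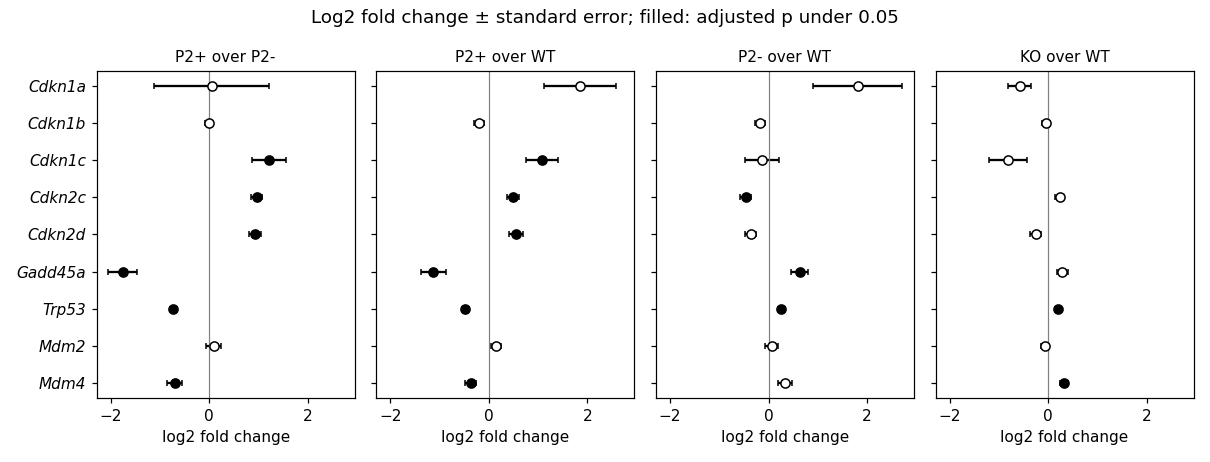
Log2 fold change (points, with bars of 1 standard error, n = 3 per group) of the 9 tested genes in 4 comparisons, where filled points had an adjusted p under 0.05. For P2+ over P2-, *Cdkn1c* (1.21), *Cdkn2c* (0.96) and *Cdkn2d* (0.92) lie to the right and *Gadd45a* (-1.76), *Trp53* (-0.73) and *Mdm4* (-0.70) to the left, while *Cdkn1a* has a standard error of 1.16.

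The differences from WT PreMegEs rested on few libraries. Of the 6 genes called in P2+ against WT, *Trp53* alone was called whichever library was left out. The number called was 3 without WT replicate 1, 2 without WT replicate 2 and 3 without WT replicate 3. Calls over all genes fell as well, from 2138 with all libraries to 1213 without WT replicate 2. In P2- against WT cells, where 16.5% of all genes were called, *Cdkn2c* was lower and *Gadd45a* and *Trp53* were higher, but the number was 0 without WT replicate 1 and 1 without WT replicate 2. Over all genes the calls of this comparison fell from 2101 to 1068 without WT replicate 1. In KO against WT cells, where 14.9% of all genes were called, *Trp53* and *Mdm4* were higher. The call of *Trp53* held on leaving out WT replicate 3 and was lost on leaving out any of the other 5 libraries, with adjusted p between 0.0518 without KO replicate 2 and 0.139 without KO replicate 3. That of *Mdm4* was lost without KO replicate 1 (adjusted p = 0.0527), without KO replicate 3 (adjusted p = 0.0903) and in a single fit over all 12 libraries. *Cdkn1a* (1.49-fold lower, adjusted p = 0.119) and *Cdkn1c* (1.77-fold lower, adjusted p = 0.177) did not pass the test, though their KO and WT libraries did not overlap, as in 31.8% of all genes tested.

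The KO libraries were also set against both sorted fractions. Only *Cdkn2c* was called between KO and P2- cells, where 1.61% of all genes were called, and 6 of the 9 were called between KO and P2+ cells, where 37.1% were. On a scale from the mean CPM of P2- (0%) to that of P2+ cells (100%), the WT mean stood at 41.3% for *Cdkn2c*, 32.9% for *Cdkn2d*, 49.9% for *Gadd45a*, 40.7% for *Trp53* and 53.3% for *Mdm4*. The KO mean stood at 68.1%, 9.99%, 29.6%, 8.46% and 2.05% for the same genes. With replicate 2 of P2- and of P2+ left out of the scale, a setting added after the data were seen, the WT mean stood at 36.0%, 43.3%, 33.4%, 39.1% and 31.6% and the KO mean at 58.6%, 16.2%, 11%, 7.44% and -29.6%, so that the KO mean of *Mdm4* then lay beyond the P2- mean. On both scales WT means lay between the sorted fractions for all 5, and KO means lay nearer to P2- for all but *Cdkn2c*. For *Cdkn1c* the KO mean (1.55 ± 0.40 CPM) was below that of P2- cells (2.49 ± 0.78 CPM), a difference that did not pass the test (adjusted p = 0.424).

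**Figure D3:**
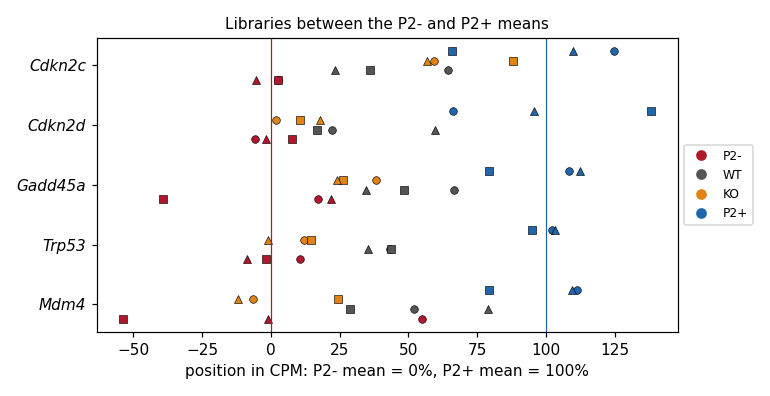
Position of each library in CPM on a linear scale between the mean of the P2- libraries (0%) and the mean of the P2+ libraries (100%) for 5 genes called between these groups, with symbols for the replicate number as in the plot of CPM by library. KO libraries lie near the P2- mean for *Trp53* (mean 8.46%) and *Mdm4* (2.05%, or -29.6% without replicate 2 of P2- and P2+) and nearer to the P2+ mean for *Cdkn2c* (68.1%).

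Markers of other cell types moved with the same comparison. Of the markers tested between P2+ and P2- PreMegEs, 16 of 18 megakaryocyte, 9 of 13 neutrophil and monocyte, 6 of 8 lymphoid, 4 of 4 mast and basophil and 10 of 12 stem cell markers were higher in P2+, and 12 of 14 erythroid markers were lower. Summed over each list, P2- and P2+ libraries held 510 to 642 and 2059 to 2871 CPM of megakaryocyte, 5992 to 6818 and 1341 to 1568 CPM of erythroid, 399 to 464 and 1249 to 1417 CPM of stem cell, 72.2 to 138 and 353 to 527 CPM of neutrophil and monocyte, 20.6 to 36.1 and 50.4 to 158 CPM of lymphoid, and 32.3 to 37.6 and 101 to 158 CPM of mast and basophil markers. The defining markers *Cd3g* and *Cd8a* of T cells, *Tpsb2*, *Mcpt4* and *Cma1* of mast cells and *Mmrn1* of megakaryocytes had 0 counts in all libraries. Other markers of these types were counted, with 0 to 7 counts of *Cd3e* and 3 to 40 of *Cd4* for T cells, 148 to 569 of *Cpa3* and 102 to 1075 of *Ms4a2* for mast cells and basophils, and 32 to 1327 of *Pf4* for megakaryocytes. KO and WT libraries held 1071 to 1144 and 1346 to 1520 CPM of megakaryocyte, 5754 to 6456 and 3394 to 3910 CPM of erythroid, 518 to 579 and 835 to 902 CPM of stem cell, and 104 to 164 and 195 to 358 CPM of neutrophil and monocyte markers. They overlapped in lymphoid (47.3 to 61.2 and 57.1 to 77.9 CPM) and in mast and basophil markers (54.2 to 76.7 and 31.9 to 55.4 CPM). Fewer cells of a type and less RNA per cell cannot be told apart in these bulk libraries, and the part of these markers in the values of the 10 genes was not tested.

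The partners of the inhibitors were read from a list of 10 CDK and cyclin genes. In P2+ against P2- cells, where 37.1% of all genes were called, 5 were higher and 1 was lower, with a median log2 difference of 0.32 against -0.02 over all genes tested. *Ccna2*, the cyclin of S phase and mitotic entry, rose 1.16 on the log2 scale (SE 0.13, adjusted p = 0.000167). Of the D-type cyclins, which the INK4 proteins compete with for their kinases, *Ccnd1* rose 1.15 (SE 0.18, adjusted p = 0.00130) and *Ccnd3* rose 1.05 (SE 0.07, adjusted p = 1.59e-05). *Ccnd2* did not pass the test, at 842, 683 and 794 CPM in P2- and 729, 600.2 and 631 CPM in P2+ libraries (log2 -0.23, SE 0.10, adjusted p = 0.112), and it was lower in P2+ than in WT cells (log2 -0.35, SE 0.08, adjusted p = 0.0156). *Ccne1*, the G1/S cyclin whose complex with CDK2 is held by p27, fell by 1.17 (SE 0.24, adjusted p = 0.00536), from 16.5, 14.1 and 16.5 CPM in P2- to 8.71, 4.48 and 7.62 CPM in P2+ libraries. Of 20 proliferation genes, 13 were higher and none was lower in P2+ cells. Their summed level was 3504 to 3671 CPM in P2- and 4724 to 5173 CPM in P2+ libraries, so *Cdkn2c* and *Cdkn2d* were higher in the fraction that also had more of the proliferation transcripts. In KO against WT cells, where 14.9% of all genes were called, 1 of the 10 was higher and 3 were lower. *Ccne1* rose 0.61 (SE 0.19, adjusted p = 0.0426), whereas *Ccnd1* fell by 0.62 (SE 0.13, adjusted p = 0.00226), *Cdk1*, the mitotic kinase, fell by 0.36 (SE 0.11, adjusted p = 0.0342) and *Ccnd3* fell by 0.27 (SE 0.07, adjusted p = 0.00952).

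Known p53 target genes other than the 10 were mixed in direction. Of 42 listed, 39 were tested between P2+ and P2- PreMegEs, 9 were higher and 11 were lower, where 37.1% of all genes were called, and their median log2 difference was 0.03 against -0.02 over all genes. *Zmat3*, an RNA-binding target of p53, had the largest fall. It was at 76.3, 53.8 and 71.6 CPM in P2- and at 16.3, 15.9 and 17.4 CPM in P2+ libraries (log2 -2.01, SE 0.14, adjusted p = 1.59e-05), and it fell by 1.83 against WT cells (SE 0.12, adjusted p = 7.92e-06). *Phlda3*, an inhibitor of AKT, fell by 1.71 (SE 0.36, adjusted p = 0.00549) and *Eda2r*, a receptor of the TNF receptor family, by 1.26 (SE 0.29, adjusted p = 0.00955). *Perp*, an apoptosis effector of the plasma membrane, was at 0.40, 0.86 and 0.35 CPM in P2- and at 4.44, 3.31 and 6.41 CPM in P2+ libraries (log2 3.16, SE 0.46). It passed the filter on low counts through its P2+ libraries alone, so that difference is given as a description. *Ptp4a3*, a phosphatase, rose 1.09 (SE 0.09, adjusted p = 4.27e-05). *9630033F20Rik*, the entry for the p53-induced regulator of glycolysis TIGAR, rose 1.29 (SE 0.32, adjusted p = 0.0124). In P2- against WT cells *Phlda3*, *Aen* and *Ccng1* were the 3 targets called higher and 6 were lower of 38 tested, where 16.5% of all genes were called. In KO against WT cells 4 were higher and 5 were lower of 39 tested, where 14.9% of all genes were called.

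**Figure D4:**
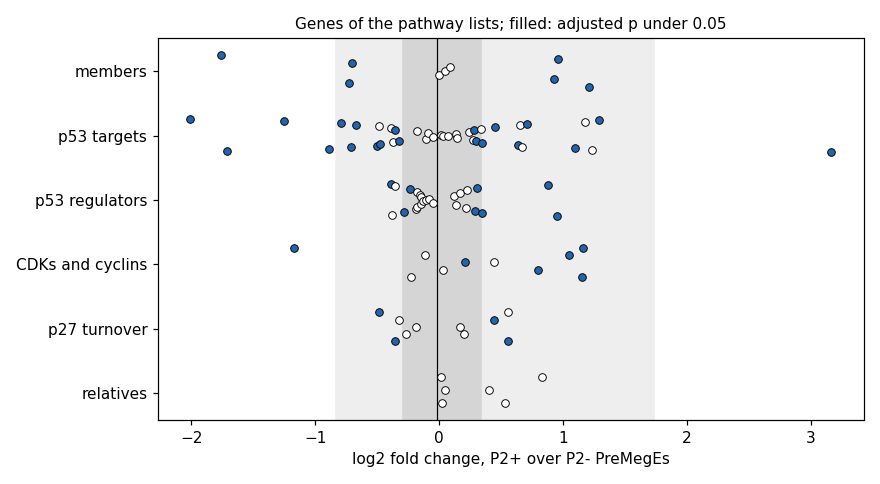
Log2 fold change of P2+ over P2- PreMegEs for the genes tested from 6 lists (1 point a gene, filled where the adjusted p was under 0.05), with shading from the 5th to the 95th and, darker, from the 25th to the 75th percentile of all genes tested, and a line at their median (-0.02). The p53 targets spread from -2.01 (*Zmat3*) to 3.16 (*Perp*) around a median of 0.03.

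The 2 libraries with high immediate early genes divided the p53 targets. A replicate 2 at least 2-fold above the mean of the other 2 libraries in both P2- and P2+ was seen for 162 of 12836 genes (1.26%), for 16 of 16 immediate early genes tested and, among the 9 genes tested here, for *Cdkn1a* alone. The immediate early genes were what set replicate 2 apart, so their 16 of 16 follows from that choice. A replicate 2 this high was also seen for 6 of 39 p53 targets, namely *Bbc3*, *Btg2*, *Plk2*, *Plk3*, *Pmaip1* and *Sertad1*, of which *Btg2* is in the immediate early list too. The share of these targets, 15.4%, was also that of the neutrophil and monocyte markers, where *S100a8* and *S100a9* did so (2 of 13), and *Slc4a1* was the 1 of 14 erythroid markers that did. Without the replicate 2 libraries, *Plk2*, *Pmaip1*, *S100a8* and *S100a9* would not have passed the filter on low counts, so these shares are descriptions. *S100a8* was at 11.6 and 8.35 CPM in replicate 2 of P2- and P2+ and at 0.50 to 1.69 CPM in the other libraries of these groups, and the part of such cells in the values of replicate 2 was not tested. *Gadd45b*, a relative of *Gadd45a*, followed the same libraries, at 13.3 times the mean of the others in P2- and 7.85 times in P2+. *Zmat3* (0.73 and 0.94 times), *Ccng1* (0.95 and 0.98 times), *Trp53* (1.01 and 1.05 times) and *Mdm2* (1.35 and 1.27 times) did not reach 2-fold.

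**Figure D5:**
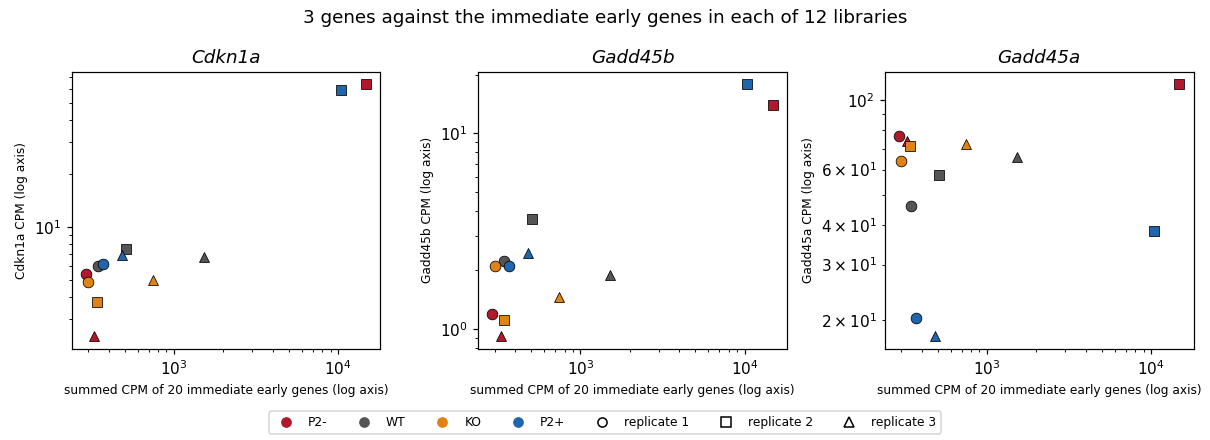
CPM of *Cdkn1a*, *Gadd45b* and *Gadd45a* against the summed CPM of 20 immediate early genes in each of the 12 libraries, both axes logarithmic, colored by group and with symbols for the replicate number. Replicate 2 of P2- (summed 14881 CPM) and of P2+ (10393 CPM) sit at the right and hold the 2 highest values of *Cdkn1a* and *Gadd45b*, whereas for *Gadd45a* the P2+ library (38.4 CPM) lies below all 9 libraries of the other groups.

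The genes whose levels were most alike over the 12 libraries, by Pearson correlation of log2 CPM, are given for the 9 genes other than *Cdkn2a*. *Trp53* was most like *Acsl5* (r = 0.991) and *Stom* (0.990), *Gadd45a* most like *Sqstm1* (0.980) and *Zcchc6* (0.977), and *Mdm4* most like *Gas5* (0.980) and *Gps2* (0.969). *Cdkn2d* was most like *Slain1* (0.971) and *Stk3* (0.970), *Cdkn2c* like *Fads6* (0.955) and *Arid3b* (0.952), and *Cdkn1c* like *Gm13131* (0.939) and *Trim44* (0.934). *Cdkn1a* was most like *Gadd45b* and *Ier3* (both 0.979), *Cdkn1b* like *Cntd1* (0.930) and *Mettl20* (0.885), and *Mdm2* like *Plaur* (0.927) and *Wsb1* (0.915). These points share the 4 groups and the library depth, so the values are a description.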

How the data were processed

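RNA-Seq was done on sorted PreMegEs, 3 libraries in each of 4 groups. The deposited values are raw counts per gene. The authors sequenced strand-specific poly(A) RNA as paired reads, aligned them to GRCm38 with Bowtie2 2.2.1 and counted them on Ensembl release 76 genes with featureCounts of Rsubread 1.13.13. How strand and reads with several matches were counted was not given in the sources used here, so reads of antisense or near-identical genes may not be told apart. Bowtie2 does not split reads across introns, which lowers counts at exon junctions.

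Groups were taken from the titles. Genes that reached 1 CPM in 3 or more of a comparison's 6 libraries entered the quasi-likelihood test of edgeR 4.0.16 in R 4.3.3, with TMM library sizes, the group as the only term and Benjamini-Hochberg adjustment over all genes. A gene was called at an adjusted p under 0.05. The scripts were checked on simulated counts. Levels are CPM scaled by TMM over the 12 libraries, and RPKM used the exonic length in GENCODE vM21. The total was between 10726098 and 14445026 counts per library, and no library was a duplicate (chi-square per degree of freedom between replicates of at least 4.62).

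The members and lists were chosen with earlier results of these data known. All 10 genes are named, as are the 3 called genes with the largest rise and fall of each pathway list, for selected comparisons, and the 2 genes most like each member. *Gadd45b*, *Ccng1*, the p53 targets high in replicate 2 and examples of other lists were named after their values were seen. Same-numbered P2+ and P2- libraries deviated together from their group means (correlations across genes of 0.421, 0.627 and 0.434), so the numbers pair these samples, on the evidence of the data and not of the labels. The main test of P2+ against P2- did not use this pairing. Alternatives were RLE scaling, no filter, the exact test of edgeR, DESeq2 1.42.0, 1 fit over all libraries, a replicate block, a minimum of 2-fold and leaving out libraries; leaving replicate 2 out of the scale between P2- and P2+ was added after seeing the data.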

Additional observations from a re-analysis of the deposited data

How the results depend on the processing

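Across the alternatives, the calls of *Gadd45a* (P2+ against P2-, KO against P2+) and *Cdkn1c* (KO against P2+) held in all of them, and those of *Trp53*, *Cdkn2c*, *Cdkn2d* and *Mdm4* in P2+ against P2- ended only under the 2-fold rule. That rule left 2 of the members called for P2+ against P2-, 2 for P2+ against WT, 0 for P2- against WT, KO against WT and KO against P2-, and 3 for KO against P2+. Over all genes it left 1626, 497, 597, 436, 64 and 1454 calls in that order, against 4762, 2138, 2101, 1910, 203 and 4748. The cause of other shifts was not tested.

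Without the filter 6 members and 2387 genes in all were called in P2- against WT, and 2 members in KO against P2-, with 465 genes in all for the latter. DESeq2 called 5 members and 2407 genes in P2- against WT (main test 2101) and 490 genes in KO against P2-, where the exact test called 359. A single fit over 12 libraries called 1 member in KO against WT, *Trp53*, and 1276 genes in all, so the call of *Mdm4* was lost there. In DESeq2 3 adjusted p-values of *Cdkn1a* were NA and were left out. With a replicate block no member call between P2+ and P2- changed, while 6514 genes in all were called, against 4762 in the main test. Elsewhere the block shares only a number: KO against P2- had 102 calls, *Cdkn1c* in P2+ against WT, *Trp53* in P2- against WT and *Cdkn1a* in KO against P2+ were lost, and *Gadd45a* in KO against WT was gained. Over all genes the block called 1901 in P2+ against WT, 1469 in P2- against WT, 2091 in KO against WT and 4525 in KO against P2+.

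Leaving out 1 library in turn gave 5 to 6, 2 to 5, 0 to 4, 0 to 3, 1 to 1 and 5 to 6 members in the order above, and 3573 to 4328, 1213 to 2447, 1068 to 2189, 1194 to 1648, 42 to 409 and 3427 to 5071 genes. KO against P2- had 409 without replicate 2 of both sorted groups, 114 without P2- replicate 1 and 54, 42 and 64 without KO replicates 1, 2 and 3.

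Only uncalled values changed sign. *Cdkn1b* in P2+ against P2- was 0.0012 with RLE, 0.0014 with DESeq2 and 0.00055 with the block. Leaving out replicate 2 of both sorted groups gave *Cdkn1a* -0.050 (P2+ against WT), -0.81 (P2- against WT) and 0.23 (KO against P2-), *Mdm2* -0.10 (P2- against WT) and 0.028 (KO against P2-), and *Mdm4* 0.15 (KO against P2-), the last 0.0032 with the block. With 1 library left out, *Cdkn1a* ranged from -1.83 to 2.66 in P2+ against P2-, -0.050 to 2.31 in P2+ against WT, -0.81 to 2.34 in P2- against WT and -2.93 to 0.23 in KO against P2-. The ends of the first range came from leaving out P2+ replicate 2 alone and P2- replicate 2 alone, which breaks that pair. *Mdm2* ranged from -0.042 to 0.25, -0.10 to 0.19 and -0.26 to 0.028 in P2+ against P2-, P2- against WT and KO against P2-. *Cdkn1b* ranged from -0.060 to 0.051 in P2+ against P2- and -0.14 to 0.045 in KO against WT, *Cdkn1c* from -0.40 to 0.055 in P2- against WT and *Mdm4* from -0.16 to 0.15 in KO against P2-. With 3 pools a group, the 95% intervals of the uncalled members bound the differences that could be seen.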

Other observations

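Of 10 genes that turn over the p27 protein tested in P2+ against P2- PreMegEs, 2 were higher and 2 were lower, with a median log2 difference of -0.01. This share is near the 37.1% of all genes called in that comparison, and so is no result about the list. *Cks1b*, the adaptor through which SKP2 binds p27, rose 0.55 (SE 0.12, edgeR adjusted p = 0.00557) and *Rbx1*, the RING subunit of cullin ligases, rose 0.44 (SE 0.10, adjusted p = 0.00675). *Rnf123*, a ligase of p27 in the cytoplasm, fell by 0.49 (SE 0.15, adjusted p = 0.0306) and *Cops5*, a subunit of the COP9 signalosome, fell by 0.35 (SE 0.11, adjusted p = 0.0380). Of 25 regulators of p53 or MDM2, 5 were higher and 3 were lower in P2+ cells, a share below the same 37.1%. *Ppp1r13b*, which encodes the p53 cofactor ASPP1, rose 0.95 (SE 0.11, adjusted p = 0.000186), *Aurka*, a mitotic kinase, rose 0.87 (SE 0.15, adjusted p = 0.00185) and *Trp53bp1*, a DNA repair factor, rose 0.35 (SE 0.07, adjusted p = 0.00412). *Rpl23*, a ribosomal protein that binds MDM2, fell by 0.39 (SE 0.09, adjusted p = 0.0105), *Atr*, a checkpoint kinase, by 0.28 (SE 0.09, adjusted p = 0.0449) and *Usp7*, a deubiquitinase of MDM2 and p53, by 0.24 (SE 0.07, adjusted p = 0.0312).

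Of 9 relatives of the CDK inhibitors, *Gadd45a* and *Trp53*, the INK4 gene *Cdkn2b* and the p53 family gene *Trp63* had 0 counts in all libraries and *Trp73* had at most 3. The 6 tested between P2+ and P2- cells had adjusted p of up to 0.945 (edgeR), and the lowest was that of *Cdkn3*, a CDK phosphatase (log2 0.83, unadjusted p = 0.0758). *Gadd45g* was at 7.32, 21.0 and 10.9 CPM in P2- and at 10.8, 23.9 and 16.5 CPM in P2+ libraries, with replicate 2 the highest in both groups.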
